A study of Mus musculus with 4 samples.

Results

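The genes described here encode the proteins of the cytosolic ribosome, the particle that translates mRNA into protein. Members were defined by a rule on the symbol, as *Rpl* or *Rps* followed by a number, with an optional ending a, a1, x or l, together with *Rplp0*, *Rplp1*, *Rplp2* and *Rpsa*. The rule was chosen with earlier results of these data known. Of the 28585 genes listed, 83 met this rule, 50 named for the large subunit (*Rpl*) and 33 for the small subunit (*Rps*). All 83 had a mean of at least 0.1 FPKM, the level above which genes were tested.

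The data are 4 bulk RNA sequencing libraries of PMN-MDSCs, the neutrophil-like myeloid-derived suppressor cells, sorted as CD11b+ Ly6G+ cells with low or no Ly6C from the spleens of C57BL/6J pups on postnatal day 7. Of these, 2 came from Dhps cko pups, which are Dhps fl/fl and carry Lysm cre, and 2 from Dhps flox pups, which are Dhps fl/fl without the Cre, so the floxed alleles are common to both groups. The pups of the groups were littermates, but which libraries share a litter was not stated. *Dhps* encodes deoxyhypusine synthase, the enzyme that starts the hypusine modification of the translation factor eIF5A, and Lysm cre, expressed from the *Lyz2* locus, is active in myeloid cells in general and not in PMN-MDSCs alone. Whether a library came from 1 pup or from pooled pups was not stated, so the p-values below measure the spread between these libraries, which may be technical. The targeted gene had 2.38 and 2.59 FPKM in the Dhps cko libraries, against 3.57 and 3.11 FPKM in the Dhps flox libraries. *Dhps* mRNA was thus detected in every library, without overlap between genotypes, and limma gave a log2 fold change of -0.41 with a standard error (SE) of 0.13 and a Benjamini-Hochberg adjusted p of 0.63. In what follows, values of a genotype are given in the order of replicates 1 and 2.

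The cytosolic ribosome consists of a small subunit, which reads the mRNA and checks its pairing with tRNA, and a large subunit, which joins the amino acids. Its proteins are made in nearly equal numbers, and their mRNAs, which are short and abundant in most cells, usually begin with a C followed by a run of C and T (written U in RNA), the 5′ terminal oligopyrimidine (TOP) motif through which mTOR and LARP1 control their translation. Hypusinated eIF5A acts on the assembled ribosome and helps it through stretches that are translated slowly. FPKM measure steady-state mRNA and not its translation.

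The TOP motif is the sequence feature that these mRNAs are known for, and 4 of its runs are shown for members with a wide range of levels. Each line gives 30 bases of the genome around the RefSeq transcription start (GRCm38.p6), 5′ to 3′ on the strand of the gene. The first capital is the annotated start, and the capitals mark the run of C and T that begins there.

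*Rps6* (chr4:86857353-86857382, minus strand): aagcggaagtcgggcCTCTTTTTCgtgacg
*Rpl28* (chr7:4792950-4792979, plus strand): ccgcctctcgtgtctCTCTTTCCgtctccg
*Rpl15* (chr14:18270972-18271001, minus strand): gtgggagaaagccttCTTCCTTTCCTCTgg
*Rpl38* (chr11:114668565-114668594, plus strand): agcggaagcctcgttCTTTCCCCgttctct

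The *Rpl15* run has 13 bases, that of *Rps6* 9, and those of *Rpl28* and *Rpl38* 8 each. A start in the RefSeq promoter table was found for 61 of the 83 members, and 14 of them (23.0%) had a C followed by at least 4 bases that are C or T exactly at an annotated start, on the strand of the gene, against 813 of 27025 genes of the whole table (3.01%). With a C followed by at least 7 such bases anywhere within 25 bases of the start, the numbers were 33 of 61 members (54.1%) and 17.7% of all genes. These letters depend on where an annotated start was placed, and a gene without them may start elsewhere in these cells. Members with the run at a start had a median log2 fold change between genotypes of 0.20, those with a start but no run 0.17, and those without an entry 0.17, each on the log2(FPKM + 0.1) scale as Dhps cko minus Dhps flox.

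Ribosomal protein genes were among the abundant transcripts of PMN-MDSCs. The median member was at 33.6 FPKM averaged over the 4 libraries, against 1.83 FPKM for all 17948 genes tested. FPKM are scaled by gene length, so levels can be set side by side, but they depend on how reads were divided between a gene and its pseudogenes. *Rpl17* had a mean of 16.9 FPKM alone and 245 FPKM with its pseudogenes, above the 196 FPKM of *Rplp0* counted in the same way. The levels and ranks below are those of the genes alone. The quartiles of the members were 16.0 and 58.3 FPKM, 12 members were at 100 FPKM or above, 59 between 10 and 100, and 12 under 10. The median was 31.1 FPKM for large-subunit members and 36.0 FPKM for small-subunit members, and the 10 most abundant members, 4 large and 6 small, held 36.6% of the sum over all 83.

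*Rplp0*, the base of the ribosomal stalk that recruits translation factors, had the highest mean, at 213 and 203 FPKM in Dhps cko replicates 1 and 2 and 176 and 192 FPKM in Dhps flox replicates 1 and 2. *Rps3a1*, a protein of the small subunit, was next, at 214 and 201 FPKM in Dhps cko and 194 and 174 FPKM in Dhps flox. The values of the 2 genes overlap, and their order was not the same in every library. *Rpl4*, a large-subunit protein that lines the exit tunnel, was at 149 and 152 FPKM in Dhps cko and 153 and 140 FPKM in Dhps flox, so its groups overlapped. It was followed, among others, by *Rps15* (mean 141 FPKM), *Rps6*, the substrate of S6 kinase (136 FPKM), *Rpsa* (123 FPKM), *Rps9* (121 FPKM), *Rpl19* (108 FPKM) and *Rpl23a* (106 FPKM), neighbours whose ranges over the libraries overlap. The other stalk genes were lower than *Rplp0*, with means of 78.1 FPKM for *Rplp1* and 15.2 FPKM for *Rplp2*.

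The members with the lowest levels included several that are named as copies of others. *Rpl39l*, a copy of *Rpl39* known for expression in the testis, was at 0.17 FPKM and listed at 0 in Dhps cko and at 0.22 and 0.12 FPKM in Dhps flox. *Rpl3l*, a copy of *Rpl3* known from striated muscle, was at 0.30 and 0.56 FPKM in Dhps cko and 0.79 and 0.21 FPKM in Dhps flox. *Rpl32l* had a mean of 1.18 FPKM, *Rpl21* 3.89 FPKM and *Rps19*, a gene mutated in Diamond-Blackfan anaemia, 5.52 FPKM. The copies were low beside the genes they resemble, with 6.73 FPKM for *Rpl39*, 44.5 FPKM for *Rpl3*, 100.4 FPKM for *Rps4x* against 10.7 FPKM for *Rps4l* and 28.1 FPKM for *Rps27* against 6.19 FPKM for *Rps27l*. Of the 100-base stretches of *Rps27*, 98.4% also occur in another gene, so its level is uncertain, while 0% of those of *Rps27l* do. *Rpl10*, the protein added last to the large subunit, was at 62.0 FPKM. Its copy *Rpl10l* was not among the members, so that pair was not compared. *Rpl6l* was also below *Rpl6*, at 13.4 against 59.5 FPKM, and 61.9% of its 100-base stretches also occur in another gene, *Rpl6* sharing the most, so the division of reads within that pair is uncertain.

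**Figure D1:**
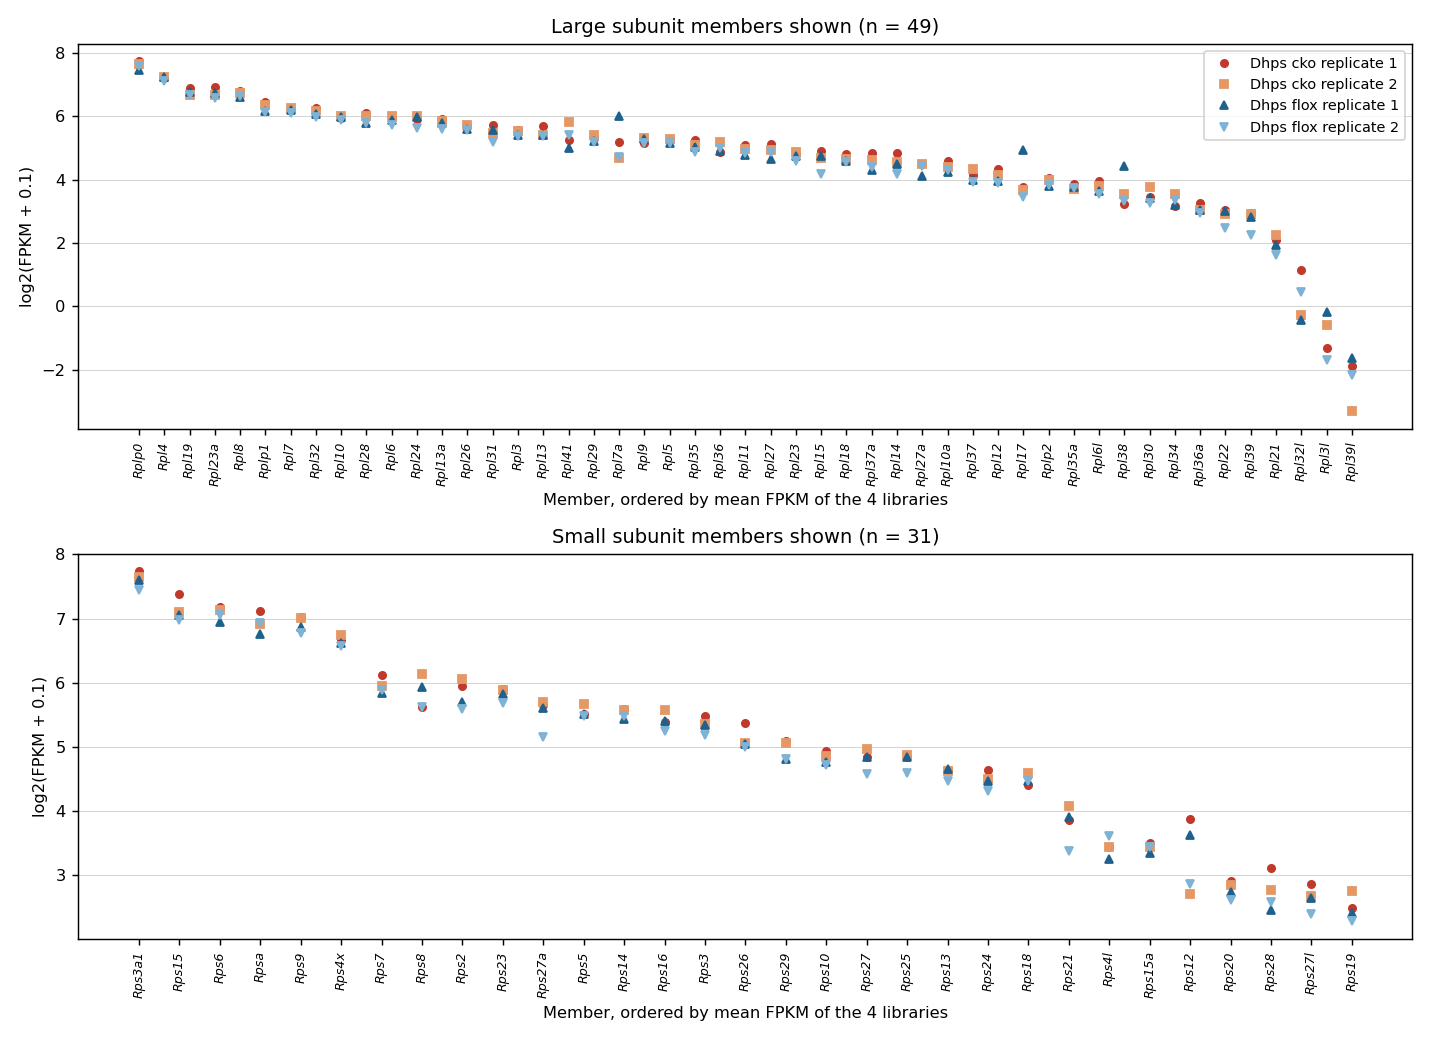
Level of 80 members in each of the 4 libraries, on the y axis as log2(FPKM + 0.1), ordered by mean level, with large-subunit members above and small-subunit members below. Most members lie within a narrow band across the libraries, while *Rpl7a*, *Rpl17* and *Rpl38* stand out in Dhps flox replicate 1 and *Rpl32l*, *Rpl3l* and *Rpl39l* lie far below the rest.

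Genotypes were then compared to ask whether targeting of *Dhps*, whose enzyme modifies the translation factor eIF5A, went with a change in ribosomal protein mRNAs. The summed level of the 83 members was 4073 and 3935 FPKM in Dhps cko replicates 1 and 2 and 3701 and 3472 FPKM in Dhps flox replicates 1 and 2. Both Dhps cko sums were above both Dhps flox sums, and their mean was 111.6% of the Dhps flox mean. The sum over large-subunit members was 110.5% and that over small-subunit members 113.1% of Dhps flox. As a share of all FPKM, the members took 1.30% and 1.23% in Dhps cko and 1.17% and 1.14% in Dhps flox. In bulk samples, a change in the cells sorted and a change in RNA per cell cannot be told apart.

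**Figure D2:**
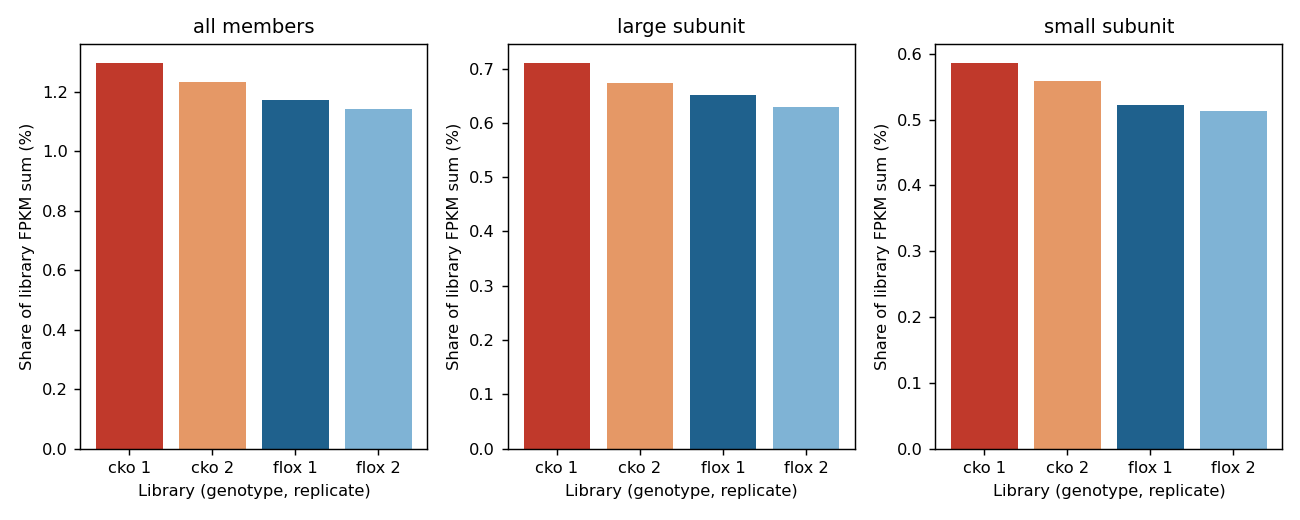
Share of the FPKM sum of each library held by all 83 members, by the 50 large-subunit members and by the 33 small-subunit members, on the y axis in percent, with 1 bar per library. For all members the bars are 1.30% and 1.23% in Dhps cko and 1.17% and 1.14% in Dhps flox.

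Gene by gene, no member passed the threshold. With limma on log2(FPKM + 0.1), which understates the change of low genes, 0 of 83 members had a Benjamini-Hochberg adjusted p under 0.05, where 0.00557% of all genes tested did. The lowest adjusted p was 0.488, for *Rps2* and *Rps29*. At an unadjusted p under 0.05, 22 members (26.5%) were higher in Dhps cko, 16 large and 6 small, where 4.72% of all genes were, and 0 members were lower, where 2.28% of all genes were. A linear model of each gene on its own gave 10 higher (12.0%) at an unadjusted p under 0.05, where 3.97% of all genes were, and 0 with an adjusted p under 0.05. With TPM scaling 12 members (14.5%) were higher at this p, where 3.50% of all genes were, and with limma without a mean-variance trend 1 member (1.20%), below the 4.24% of all genes. Without Dhps cko replicate 1 the number was 6 (7.23%, against 2.25% of all genes), without Dhps cko replicate 2 it was 14 (16.9%, against 2.46%) and without Dhps flox replicate 2 it was 11 (13.3%, against 5.30%). With 2 libraries a group, the smallest p that an exact permutation test allows is 0.33.

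The direction was shared by most members. The log2 fold change was above 0 in 78 of 83 members (94.0%), 45 of 50 large and all 33 small, where 52.2% of all genes tested were above 0, and below 0 in 5 members, where 47.8% of all genes were. Both Dhps cko libraries were above both Dhps flox libraries in 54 members (65.1%), 30 large and 24 small, where 20% of all genes were, and below them in 0 members, where 16% of all genes were, and the groups overlapped in the other 29. The median log2 fold change was 0.18 for large-subunit and 0.17 for small-subunit members, against 0.01 for all genes. Members are measured in the same 4 libraries and are no replicates of each other, so these counts describe the libraries and are no test.

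The size of this shift can be set beside the differences between replicates. The members' median difference was 0.06 on the log2 scale between Dhps cko replicates 1 and 2, with 54 of 83 higher in replicate 1, and 0.09 between Dhps flox replicates 1 and 2, with 61 of 83 higher in replicate 1. Across genotypes it was 0.12 between Dhps cko replicate 2 and Dhps flox replicate 1, the nearest pair, and 0.26 between Dhps cko replicate 1 and Dhps flox replicate 2, the farthest. The smallest difference between genotypes was therefore close to the difference between the Dhps flox replicates.

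**Figure D3:**
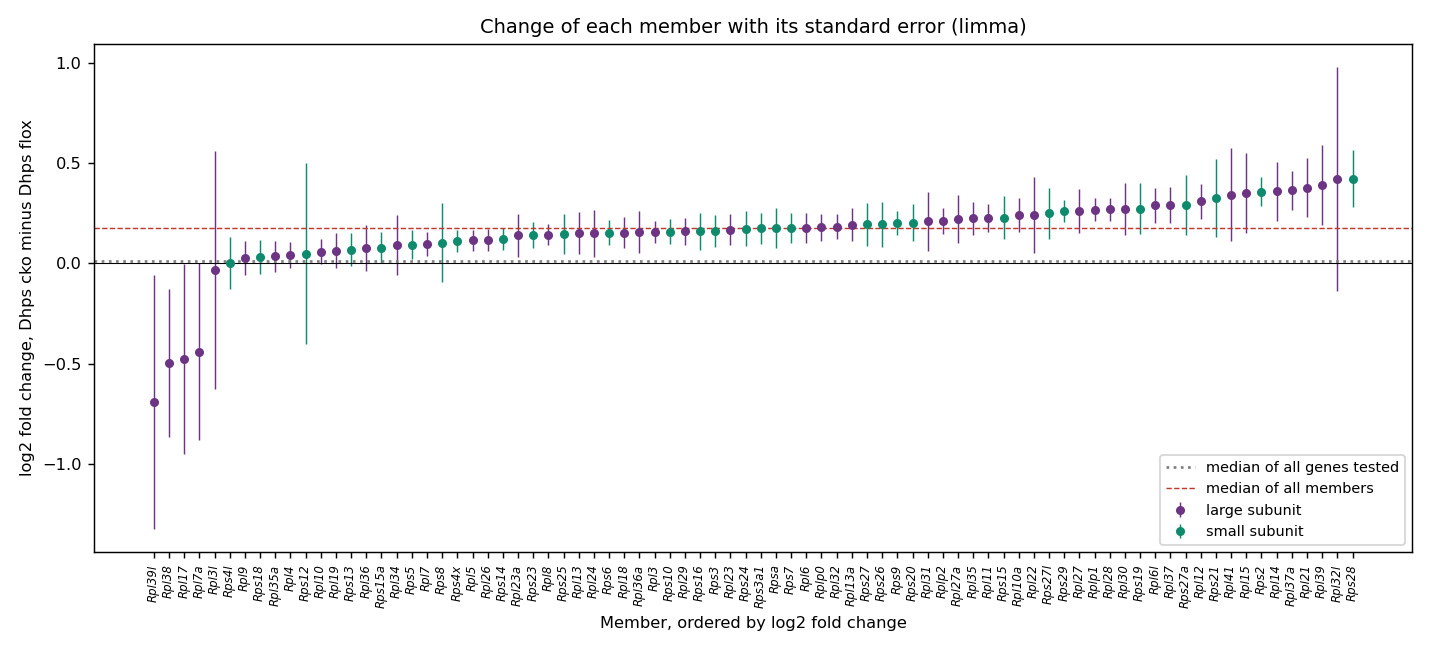
Log2 fold change of 80 members, Dhps cko minus Dhps flox, with its standard error (SE) from limma, ordered by size and coloured by subunit, with lines at 0, at the median of all genes tested (0.01) and at the median of all 83 members (0.18). Of the 80 points 75 lie above 0, and most of the 5 below it have wide errors.

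Among the proteins of the small subunit, *Rps2* (ENSMUSG00000044533; chr17:24718116-24721929 in GENCODE M21, GRCm38), which lies at the mRNA entry site, had the lowest p of all members. It was at 61.7 and 66.9 FPKM in Dhps cko and 52.0 and 48.3 FPKM in Dhps flox, without overlap. Its log2 fold change was 0.36 (SE 0.07), and the Benjamini-Hochberg adjusted p of limma was 0.488. Of its 100-base stretches, 54.6% occur in another gene, and with its pseudogenes added the log2 fold change was 0.21. *Rps29* (ENSMUSG00000034892; chr12:69157722-69159186), a small zinc-binding protein, was at 33.9 and 33.1 FPKM in Dhps cko and 28.0 and 27.9 FPKM in Dhps flox. Its replicates lay close together, and the log2 fold change was 0.26 (SE 0.055). *Rps28* had a log2 fold change of 0.42 (SE 0.14), from 8.56 and 6.68 FPKM in Dhps cko and 5.38 and 5.86 FPKM in Dhps flox, and 0.25 without Dhps cko replicate 1. *Rps9* was also higher at an unadjusted p under 0.05, with a log2 fold change of 0.20 and no overlap. *Rps6* had a log2 fold change of 0.15 (unadjusted p = 0.059 from limma) and *Rps4x* 0.11, both without overlap, and *Rps6* had 0.095 without Dhps flox replicate 1. With quantile normalization *Rps6* was at 0.086 and *Rps4x* at 0.055.

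Among the large-subunit members, the stalk genes were higher in both Dhps cko libraries. *Rplp1* (chr9:61913284-61914542) was at 87.9 and 82.8 FPKM in Dhps cko and 71.9 and 69.7 FPKM in Dhps flox, a log2 fold change of 0.27 (SE 0.06). *Rplp2* was at 16.6 and 16.0 FPKM in Dhps cko and 13.9 and 14.2 FPKM in Dhps flox, a log2 fold change of 0.21. *Rplp0* had 0.18, with 0.12 without Dhps flox replicate 1 and 0.086 with quantile normalization. All 3 were higher without overlap between genotypes, where 20% of all genes were, and at an unadjusted p under 0.05, where 4.72% of all genes were. *Rpl12*, whose protein sits at the foot of the stalk, had a log2 fold change of 0.31 on the same terms. *Rpl28* was at 69.7 and 64.96 FPKM in Dhps cko and 55.7 and 56.0 FPKM in Dhps flox, a log2 fold change of 0.27 (SE 0.06). Others with an unadjusted p under 0.05 were *Rpl37a* (0.36), *Rpl21* (0.38), *Rpl37* (0.29), *Rpl6l* (0.29), *Rpl10a* (0.24), *Rpl11* (0.23), *Rpl35* (0.22), *Rpl32* (0.18), *Rpl3* (0.16) and *Rpl8* (0.14), each as a log2 fold change. Of these, *Rpl10a* was at 0.15 without Dhps cko replicate 1, *Rpl37* at 0.19 without Dhps cko replicate 2, *Rpl21* at 0.22 without Dhps flox replicate 2 and *Rpl8* at 0.088 with quantile normalization.

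Some ribosomal proteins are known for roles outside the ribosome, and those genes did not all lie on one side of 0. *Rpl38*, known for its part in the translation of Hox mRNAs, had a log2 fold change of -0.50 with overlapping groups, the lowest of the members with a mean of 1 FPKM or more, 0.059 without Dhps flox replicate 1, and 0.39 with its pseudogenes added. *Rpl5* and *Rpl11*, which bind MDM2 and so stabilise p53, had log2 fold changes of 0.11 and 0.23. *Rpl13a*, part of a complex that silences inflammatory mRNAs, was at 60.9 and 58.1 FPKM in Dhps cko and 55.7 and 48.7 FPKM in Dhps flox, a log2 fold change of 0.19 with no overlap. *Rps3*, also found with NF-κB, had 0.16 and *Rps14*, lost in the 5q- syndrome, 0.12, both without overlap. *Rpl22*, *Rpsa*, the laminin receptor, and *Rps19* had 0.24, 0.18 and 0.27, and the groups overlapped in *Rpl22* and *Rpsa*. *Rps27a*, which is made as a fusion to ubiquitin, had 0.29, from 50.1 and 52.0 FPKM in Dhps cko and 48.7 and 35.7 FPKM in Dhps flox. Its log2 fold change was 0.067 without Dhps flox replicate 2, 0.52 without Dhps flox replicate 1 and 0.11 with its pseudogenes added. Without Dhps flox replicate 2, *Rpl13a* was at 0.094, *Rps3* at 0.084 and *Rpl22* at -0.022, and without Dhps flox replicate 1 *Rpl13a* was at 0.29 and *Rpl22* at 0.50. Without Dhps cko replicate 1, *Rps3* was at 0.099 and *Rpsa* at 0.073, without Dhps cko replicate 2 *Rpsa* was at 0.28 and *Rps19* at 0.14 (and at -0.12 with its pseudogenes added), and without Dhps flox replicates 1 and 2 in turn *Rpsa* was at 0.084 and 0.27.

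Several related genes that the naming rule leaves out were also higher in both Dhps cko libraries. *Fau*, which fuses a ubiquitin-like protein to a small-subunit protein, was at 119 and 118 FPKM in Dhps cko and 109 and 94.2 FPKM in Dhps flox, a log2 fold change of 0.23, and of 0.13 without Dhps flox replicate 2. *Rack1*, a scaffold protein on the small subunit, had 0.15, and 0.093 without Dhps cko replicate 1. *Rpl36al* had 0.43 (unadjusted p = 0.0020 and Benjamini-Hochberg adjusted p = 0.457 from limma), from 13.4 and 13.0 FPKM in Dhps cko and 10.1 and 9.45 FPKM in Dhps flox. *Rpl22l1* (0.17) and *Rpl7l1* (0.05) had larger unadjusted p-values of 0.43 and 0.49, and *Eif5a* itself, the substrate of the *Dhps* enzyme, had 0.08 and *Dohh*, the enzyme of the next step, 0.21, at unadjusted p-values of 0.29 and 0.22 from limma. The groups overlapped in *Rpl22l1* and *Eif5a*. Without each library in turn, *Rpl22l1* ranged from -0.093 to 0.43, *Rpl7l1* from 0.025 to 0.071, *Eif5a* from 0.013 to 0.14 and *Dohh* from 0.089 to 0.33. With quantile normalization *Eif5a* was at 0.023.

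Among members averaging 1 FPKM or more, 3 had a value below 0, and each rested on 1 library. *Rpl38*, a small protein of the large subunit, was at 9.34 and 11.5 FPKM in Dhps cko and 21.6 and 9.96 FPKM in Dhps flox. *Rpl17*, which lies near the mouth of the exit tunnel, was at 13.6 and 12.6 FPKM in Dhps cko and 30.5 and 10.9 FPKM in Dhps flox. *Rpl7a* was at 36.2 and 25.5 FPKM in Dhps cko and 64.5 and 26.4 FPKM in Dhps flox. In each, Dhps flox replicate 1 was the high library, and the log2 fold changes of -0.50, -0.48 and -0.44 became 0.059, 0.26 and 0.20 without it. The other 2 members below 0 were *Rpl39l* and *Rpl3l*, which were both under 1 FPKM.

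The same library was low in pseudogenes of these members. Pseudogenes of ribosomal protein genes are copies of their spliced mRNAs inserted elsewhere in the genome, and their reads can be hard to tell from those of the gene. *Rpl38-ps2* was at 26.7 and 28.9 FPKM in Dhps cko and 6.49 and 19.9 FPKM in Dhps flox. *Rpl7a-ps11* was at 80.0 and 79.8 FPKM in Dhps cko and 52.6 and 81.9 FPKM in Dhps flox. The 7 listed pseudogenes of *Rpl17* summed to 244 and 247 FPKM in Dhps cko and 195 and 226 FPKM in Dhps flox. Gene and pseudogenes together, *Rpl38* came to 36.0 and 40.4 FPKM in Dhps cko and 28.5 and 29.9 FPKM in Dhps flox, a log2 fold change of 0.39, *Rpl17* to 0.16 and *Rpl7a* to -0.02. FPKM of features with different lengths do not add up exactly, so these sums are approximate.

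For *Rps12*, gene and pseudogenes differed in opposite ways within each genotype. *Rps12* was at 14.7 and 6.43 FPKM in Dhps cko and 12.3 and 7.17 FPKM in Dhps flox, while its pseudogenes summed to 82.3 and 106 FPKM in Dhps cko and 55.8 and 85.5 FPKM in Dhps flox. In both genotypes the library with the higher *Rps12* had the lower pseudogene sum. For *Rps19* both gene and pseudogene were higher in Dhps flox replicate 1 than in Dhps flox replicate 2, the pseudogene more so, with *Rps19* at 5.19 and 4.77 FPKM there and *Rps19-ps6* at 15.4 and 11.8 FPKM in Dhps cko and 23.7 and 11.2 FPKM in Dhps flox, and the log2 fold change of *Rps19* was 0.27 alone and -0.12 with pseudogenes. For *Rpl21*, pseudogenes held 93.8% of the joint sum, so its own 3.89 FPKM is a small part of the signal with that name. Whether reads were divided differently between gene and pseudogene in these libraries was not tested.

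**Figure D4:**
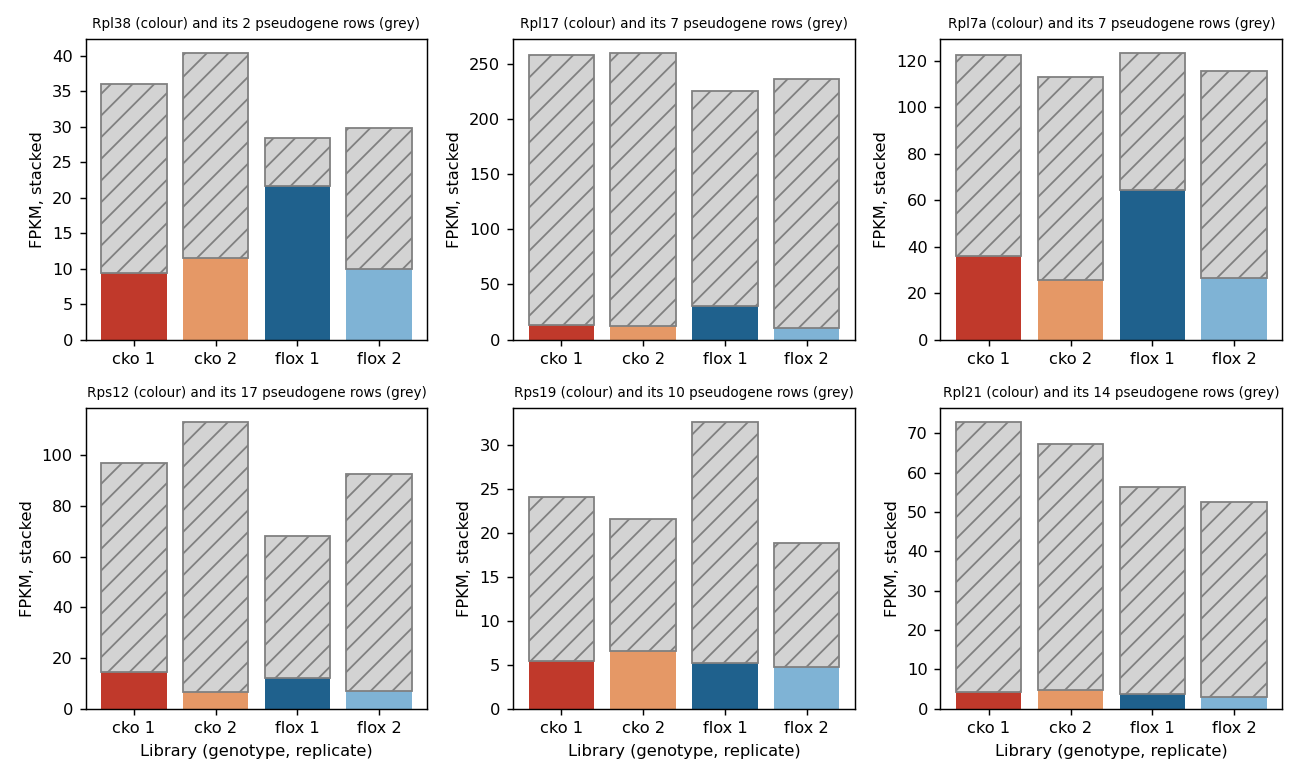
FPKM of 6 members (coloured part of each bar) and of their listed pseudogenes (hatched grey part), stacked, with 1 bar per library. For *Rpl38*, *Rpl17* and *Rpl7a* the coloured part is largest and the grey part smallest in Dhps flox replicate 1.

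Pseudogenes were listed for 55 of the 83 members, 221 in all, of which 83 averaged 1 FPKM or more, and in 12 members they summed to more than the gene. Their total was 1245 and 1246 FPKM in Dhps cko and 1052 and 1106 FPKM in Dhps flox, so they too were higher in both Dhps cko libraries. With pseudogenes added to their gene, in a comparison chosen after the values were seen, 78 members had a log2 fold change above 0, 60 (72.3%) were without overlap and higher, where 19.97% of all genes in that comparison were, and the median stayed at 0.18. Members grouped by sequence sharing had similar medians. The 16 with under 10% of their 100-base stretches in another gene had a median of 0.17 in log2 fold change and 14 above 0, and the other 67 had 0.18 and 64 above 0. Stretches were counted in principal transcripts of GENCODE M21, and the median member had 26.6% of them in another gene.

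Many ribosomal protein genes carry snoRNA genes, which guide the modification of ribosomal RNA, within their introns. A snoRNA gene lay inside 30 of 83 members (36.1%), for example 4 in *Rpl13a* and 5 in *Rpl4*, and inside 256 of 17715 tested genes (1.45%). The median log2 fold change was 0.17 for members with a snoRNA gene and 0.18 for the 53 without.

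Members are short, with a median of 1734 exon bases against 3828 for all genes averaging 1 FPKM or more, and the genotype difference of all genes varied with length. These genes were divided by exon length into 5 groups of equal size, and 68 of the 81 members at this level lay in the 2 shortest groups. With members left out, the median log2 fold change was 0.09 in the shortest group, then 0.06, 0.03 and -0.02, and -0.06 in the longest. The 2088 genes left in the shortest group had a median difference of 0.04 between the Dhps cko replicates and 0.04 between the Dhps flox replicates, and of 0.06 to 0.13 across genotypes. The members' median of 0.18 was above the 0.09 of the shortest group, and that difference was not tested. The part of length in the members' shift was not tested.

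**Figure D5:**
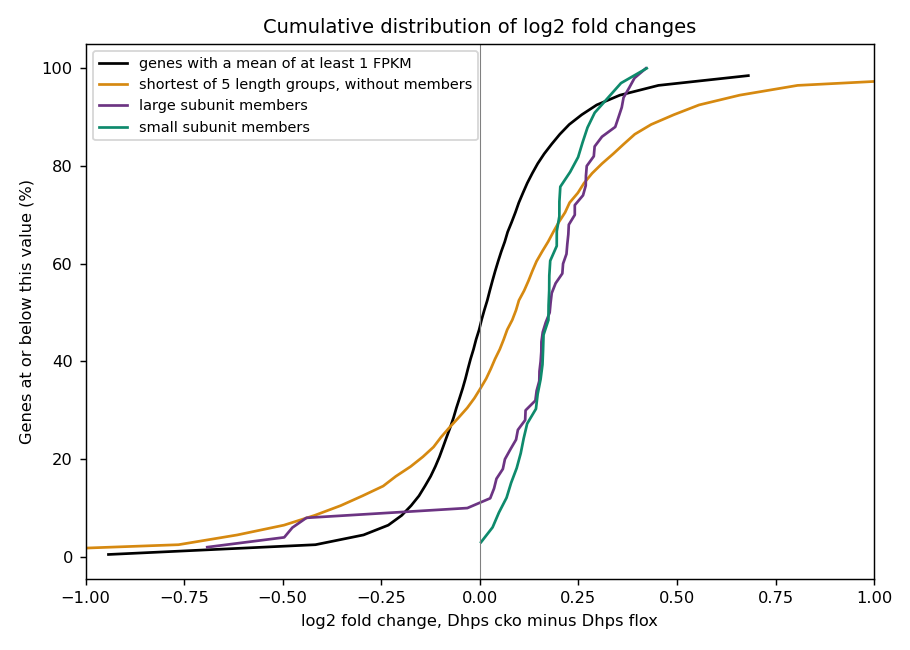
Cumulative share of genes, on the y axis in percent, at or below each log2 fold change between Dhps cko and Dhps flox, for genes averaging 1 FPKM or more, the shortest of 5 length groups of these without members, and the members of each subunit, with the x axis limited to values from -1 to 1. The curves of both subunits lie to the right of the shortest length group around their medians of 0.18 and 0.17, and 3 large-subunit members lie between -0.50 and -0.44.

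Genes that make or control ribosomes had medians nearer 0. Of 73 ribosome biogenesis genes tested, 51 had a log2 fold change above 0 (52.2% of all genes tested were), with a median of 0.07, and 3 were higher and 0 lower at an unadjusted p under 0.05, against the 4.72% and 2.28% of all genes. The share higher at this p was below the share of all genes. The 3 were *Rsl24d1*, which works in large-subunit assembly (0.22), *Fbl*, the rRNA methyltransferase fibrillarin (0.53), and *Nop16*, a nucleolar protein (0.53). *Fbl* and *Nop16* averaged 1.83 and 1.25 FPKM, and with a pseudocount of 1 they were at 0.36 and 0.32. The next by p, *Nol6*, had -0.31. For 21 genes of RNA polymerase I and rDNA transcription the median was 0.01 and 11 were above 0, and 1 was higher, where 4.72% of all genes were, namely *Myc*, at 1.60 and 1.44 FPKM in Dhps cko and 1.07 and 1.09 FPKM in Dhps flox. The next by p were *Rrn3*, an initiation factor of RNA polymerase I, at -0.28, and the polymerase genes *Znrd1* at 0.22 and *Polr1b* at 0.43. *Polr1b* averaged 0.70 FPKM. With a pseudocount of 1, *Polr1b* was at 0.20 and *Myc* at 0.28. The 20 genes that control ribosomal protein mRNAs had a median of -0.02 and the 20 of ribosome-associated and rescue factors -0.03, with 0 past an unadjusted p under 0.05 in either list. Lowest by p were *Larp4b* (-0.11), *Tia1* (-0.16), *Mlst8* (0.10) and *Eif4ebp2* (-0.070) in the one and *Rack1* (0.15), *Ltn1* (-0.15), *Eif2ak4* (-0.23) and *Abce1* (-0.12) in the other. Without 1 library, *Fbl* was at 0.34 (Dhps cko replicate 1), *Znrd1* at 0.13 (Dhps cko replicate 2), *Eif2ak4* at -0.15 (Dhps cko replicate 2 or Dhps flox replicate 2), *Rrn3* at -0.16 and *Eif4ebp2* at -0.042 (Dhps flox replicate 2), and *Tia1* at -0.088, *Abce1* at -0.078 and *Mlst8* at 0.027 (Dhps flox replicate 1). *Mlst8* was at 0.049 without Dhps cko replicate 1, 0.15 without Dhps cko replicate 2 and 0.17 without Dhps flox replicate 2. By limma with Benjamini-Hochberg adjustment, 0 genes of these 4 lists had an adjusted p under 0.05.

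The markers of the sorted cells and of other cells were read in the same libraries. The summed neutrophil markers were at 79163 and 81660 FPKM in Dhps cko and 78919 and 74475 FPKM in Dhps flox, with *Ly6g* among them at 222 and 242 FPKM in Dhps cko and 195 and 185 FPKM in Dhps flox, so the defining genes of the labelled cells were abundant in every library. Of the 12 neutrophil markers 11 were above 0, 5 were without overlap with Dhps cko higher, where 20% of all genes were, and *Ly6g* was the 1 higher at an unadjusted p under 0.05. By limma with Benjamini-Hochberg adjustment, 0 markers of any list had an adjusted p under 0.05. Of all genes, 52.2% were above 0. The 8 B cell markers summed to 67.5 and 70.4 FPKM in Dhps cko and 43.2 and 52.4 FPKM in Dhps flox, with 8 of 8 above 0 and 6 higher at an unadjusted p under 0.05, where 4.72% of all genes were. The 8 T cell markers summed to 18.5 and 14.98 FPKM in Dhps cko and 11.9 and 8.01 FPKM in Dhps flox, with 8 of 8 above 0 and 3 higher at that p, against the same 4.72%. The 8 macrophage markers summed to 199 and 202 FPKM in Dhps cko and 161 and 159 FPKM in Dhps flox, with 8 of 8 above 0 and 4 higher at that p, again against 4.72%.

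Primary granule genes of early neutrophils, 4 listed here, summed to 56.9 and 34.0 FPKM in Dhps cko and 25.3 and 35.0 FPKM in Dhps flox, so the sums overlapped between genotypes. All 4 were above 0, with a median log2 fold change of 0.56. At an unadjusted p under 0.05, 0 were higher, where 4.72% of all genes were. Without overlap, 1 was higher, where 20% of all genes were. The 8 erythroid markers summed to 735 and 881 FPKM in Dhps cko and 608 and 916 FPKM in Dhps flox, which overlapped, with 8 of 8 above 0 and a median of 0.11. Of these 8, 0 were higher at an unadjusted p under 0.05, where 4.72% of all genes were. In addition, 1 was higher without overlap, a share below the 20% of all genes. The 10 proliferation genes summed to 329 and 297 FPKM in Dhps cko and 323 and 334 FPKM in Dhps flox, which overlapped. Of these, 3 were above 0, where 52.2% of all genes were, with a median of -0.017. At an unadjusted p under 0.05, 0 were higher and 0 lower, where 4.72% and 2.28% of all genes were. Without overlap, 0 were higher and 2 lower, where 20% and 16% of all genes were. No marker of these lists was at 0 in all libraries. The part of these other cells in the difference between genotypes of the ribosomal protein genes was not tested.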

How the data were processed

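The authors trimmed reads with Cutadapt v1.9, aligned them with HISAT2 v2.2.1 and used StringTie v2.1.6 and ballgown to deposit FPKM per gene, rounded to 2 decimals. The build in the submitters' processing notes is mm10; the annotation release and use of strand are not given in the sources used here. FPKM carry no read counts, so depth is unknown and no counting interval is given. The FPKM summed to between 304281 and 319286 per library, and 10611 to 10729 genes reached 1 FPKM.

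Members and gene lists were chosen with earlier results of these data known. From the deposited FPKM, log2(FPKM + 0.1) of the 17948 genes averaging 0.1 FPKM or more was compared by limma 3.58.1 in R 4.3.3 (2 libraries against 2, mean-variance trend, no replicate block), with Benjamini-Hochberg adjustment over all of them and a threshold of 0.05, after a test on simulated data. Other steps used Python 3.11.15 with pandas 2.3.3, numpy 2.4.6 and matplotlib 3.10.9. Positions, exon lengths, snoRNA genes and 100-base stretches come from GENCODE M21, and starts from RefSeq.

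Named are the 10 members with the highest and the 5 with the lowest mean, the 5 with the highest and the 5 with the lowest log2 fold change among those at 1 FPKM or above (2 of the lowest 5 were above 0), up to 20 by p with an unadjusted p under 0.05, the stalk genes, gene copies, members with known roles elsewhere, related genes outside the rule and up to 4 genes of each list by p. *Rps12*, *Rpl15*, *Rpl6* and *Rpl8* were chosen after their values were seen. As alternatives, the pseudocount, low-value filter, scaling and variance model were changed, a replicate block was added, each library was left out and, chosen after seeing the data, pseudogenes were added to their gene. Some genes that this rule names are not reported here, and 3 members are left out of the plots of single members. Protein sequences were not used here.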

Additional observations from a re-analysis of the deposited data

How the results depend on the processing

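The median log2 fold change of the members was above 0 under all 16 alternatives. Without each library in turn it ranged from 0.13 to 0.22 for all members, from 0.13 to 0.22 for the large subunit and from 0.13 to 0.25 for the small subunit. By limma with Benjamini-Hochberg adjustment, 0 members had an adjusted p under 0.05 under these alternatives. The number higher at an unadjusted p under 0.05, which was 22, was 12 with TPM scaling (3.50% of all genes), 1 with limma without a trend (4.24% of all genes, so that the members' share was below it) and 10 with a model of each gene alone (3.97% of all genes). It ranged from 6 to 23 without each library, with 6 without Dhps cko replicate 1, 14 without Dhps cko replicate 2 and 11 without Dhps flox replicate 2, where 2.25% to 5.30% of all genes were. The number lower ranged from 0 to 3, the 3 being *Rpl38*, *Rpl17* and *Rpl7a* without Dhps flox replicate 2, where 3.64% of all genes were lower. With 3 libraries, 58 to 70 members were without overlap and higher in Dhps cko, and 1 to 7 without overlap and lower. Groups of 2 against 1 overlap less often by construction, and 32.3% to 37.1% of all genes were then without overlap and higher and 26.7% to 34.2% lower. The pups were littermates, but nothing says that a replicate number marks a litter, so the numbers were not taken to pair the libraries, and same-numbered deviations had a correlation of -0.06 across 10629 genes. With a replicate block, 15 members were higher and 0 lower at an unadjusted p under 0.05, where 4.01% and 2.02% of all genes were.

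The log2 fold change of 14 named genes reversed under some alternative. With quantile normalization *Rpl4* was at -0.048, with a pseudocount of 0.01 *Rpl3l* at 0.0029, with TPM scaling *Rps4l* at -0.029 and *Rpl9* at -0.0059, and with median-ratio size factors *Rps4l* at -0.0088. With pseudogenes added, *Rpl38* was at 0.39, *Rpl17* at 0.16, *Rps19* at -0.12 and *Rps4l* at -0.0069. When a library was left out, the values ranged from -0.019 to 0.10 for *Rpl4*, from -0.044 to 0.17 for *Rpl19*, from -0.29 to 1.13 for *Rpl32l*, from -0.79 to 0.73 for *Rpl3l*, from -1.41 to 0.025 for *Rpl39l*, from -0.17 to 0.18 for *Rps4l*, from -0.059 to 0.11 for *Rpl9*, from -0.022 to 0.50 for *Rpl22*, from -0.093 to 0.43 for *Rpl22l1* and from -0.54 to 0.64 for *Rps12*. For *Rpl38*, *Rpl17* and *Rpl7a* the ranges were from -1.05 to 0.059, from -1.22 to 0.26 and from -1.08 to 0.20, the values above 0 being those without Dhps flox replicate 1. The cause was not tested. *Rpl39l* was below the filter without Dhps flox replicate 1 and has no value there. The other 1185 values of named genes kept their direction and their side of the adjusted threshold.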
